A study of Mus musculus with 6 samples.

Results

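The lipoxygenase and leukotriene genes described here are 9 of the 21900 genes in a table of lung RNA levels, taken by symbol: the lipoxygenases Alox5, Alox12 and Alox15, the lipoxygenase partner Alox5ap, the enzymes Lta4h and Ltc4s, and the receptors Ltb4r1, Cysltr1 and Cysltr2. Expression of Alox5, Alox5ap, Alox12 and Ltb4r1 was far higher in the lung of 1 male labelled KO than in any of the other 5 lungs, at 2.87 to 4.81 times the next highest library, where 1.43% of all genes tested were above 2 times in that lung. For these 4 genes the difference between the 2 male libraries, 1 per label, was larger than that between the labels in females by limma's interaction test over all genes, and all 4 calls ended when no filter on low values was used. None of the 9 genes passed the test between labels over all 6 libraries, and the values of the labels overlapped for all 9. Ltc4s, which makes the cysteinyl leukotrienes, was lowest in the same male, at 2.30 CPM against 4.15 to 8.46 CPM in the other 5 lungs. It did not pass the interaction test (log2 -0.67), and Cysltr1 was lowest in that male as well, at 5.30 CPM.

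Lipoxygenases add oxygen to arachidonic acid, a fatty acid released from membranes. The lipoxygenase encoded by Alox5 works with its membrane partner, the activating protein FLAP encoded by Alox5ap, to make the unstable epoxide leukotriene A4. Lta4h turns this epoxide into leukotriene B4, which attracts neutrophils through the receptor encoded by Ltb4r1, while Ltc4s joins it to glutathione to give the cysteinyl leukotrienes, which contract airway muscle and make vessels leak through the receptors encoded by Cysltr1 and Cysltr2. In lung these genes are best known from neutrophils, macrophages, mast cells and eosinophils, and from asthma.

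The samples labelled Cyp1b1 KO were 3 lungs, from 2 females and 1 male, and those labelled Wild Type were likewise 3 lungs, from 2 females and 1 male. All had been on a high fat diet, which the series title calls a western diet, for 10 weeks. The sources used here do not give strain, age or how the gene was disrupted, and the labels do not state whether each library came from its own mouse, so a p-value here reflects variation among libraries, part of which may be technical. Replicate numbers only name libraries, and replicate 3 is the male in both labels. The targeted gene went against its label: Cyp1b1 was at 51.2, 56.1 and 48.4 CPM in the libraries labelled KO and at 12.5, 19.04 and 18.5 CPM in those labelled WT. Every direction below therefore rests on the labels.

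The unit is CPM, reads of a gene per 1000000 reads assigned to any gene, from 20.2 to 27.6 M (1000000) such reads per library as read from the step between low values. All 54 values of the 9 genes were whole multiples of the step of their library within 0.05, and stood for 30 to 5204 reads. All 9 genes were above the filter of a mean of 0.5 CPM, so all 9 were tested. Lung markers were high in every library, with Sftpc, a surfactant protein gene of alveolar type 2 cells, between 7541 and 12270 CPM and Scgb1a1, the secretoglobin gene of club cells, between 9396 and 24282 CPM. In whole lung, fewer cells of a type and less RNA per cell cannot be told apart.

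Alox5ap was the most abundant of the 9 genes per kb of annotated exon in every library. It stood at 143 CPM per kb in the male labelled KO and 41.4 CPM per kb in the male labelled WT, and between 21.0 and 31.4 CPM per kb in the 4 females. In the females the order of the median levels per kb went on with Lta4h at 7.08, Ltb4r1 at 5.06, Ltc4s at 4.59, Alox5 at 3.19, Alox12 at 1.89, Alox15 at 1.31, Cysltr1 at 1.25 and Cysltr2 at 0.697 CPM per kb. The ranges over the females overlapped between Ltb4r1 and Ltc4s, between Alox5 and Alox12, between Alox12 and Alox15 and between Alox15 and Cysltr1, so these neighbours were not separated by the spread. In the male labelled KO the order was another one below Alox5ap, with Ltb4r1 at 25.6, Alox12 at 13.1 and Alox5 at 10.5 CPM per kb above Lta4h at 9.29 CPM per kb. The length is that of all annotated exons of a gene merged, and a gene read mainly from a short transcript has a higher level per kb than given here.

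**Figure D1:**
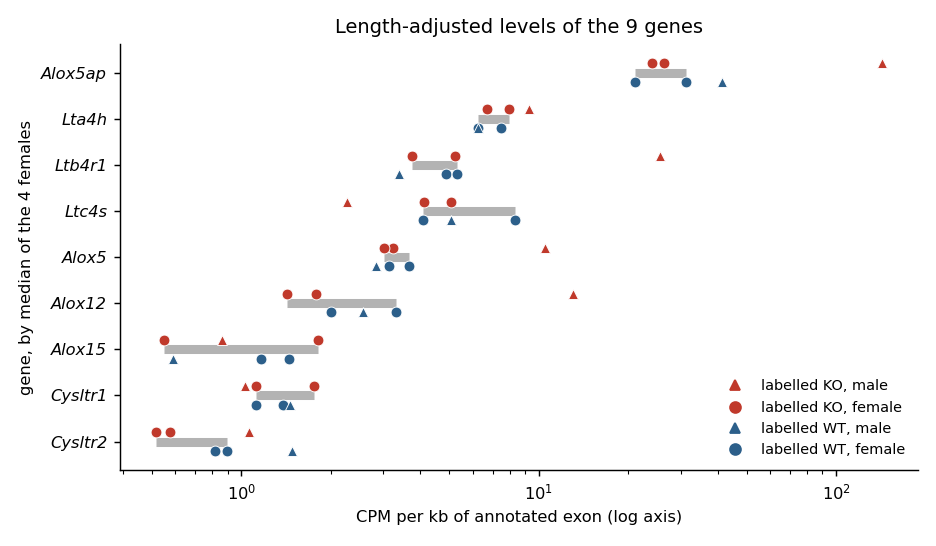
Levels of the 9 genes in CPM per kb of annotated exon on a log axis, 1 symbol per library, triangles for males and circles for females, red for labelled KO (drawn above) and blue for labelled WT; grey bars span the 4 females. The male labelled KO lies to the right of all other libraries for Alox5ap, Ltb4r1, Alox5, Alox12 and, by less, Lta4h. It lies to their left for Ltc4s and, by less, Cysltr1.

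Both genes of the step that starts leukotriene synthesis were high in the male labelled KO. Alox5 (ENSMUSG00000025701, on the minus strand of mm10 chromosome 6 from 116410077 to 116461178) was at 13.3, 12.4 and 43.0 CPM in labelled KO replicates 1, 2 and 3, against 15.0, 12.9 and 11.7 CPM in labelled WT replicates 1, 2 and 3. The 5 libraries other than the male labelled KO lay within 11.7 to 15.0 CPM, so the labels overlapped and the means, 22.9 ± 17.4 and 13.2 ± 1.68 CPM (SD, n = 3 each), differed by less than the spread within labelled KO. Alox5ap (ENSMUSG00000060063, chromosome 5, 149264767 to 149288153, plus strand) was at 37.4, 34.3 and 202.9 CPM in the libraries labelled KO, against 44.5, 29.8 and 58.8 CPM in those labelled WT. Both males lay above all 4 females for Alox5ap, the male labelled WT by much less. The level of Alox5ap over that of Alox5, both per kb, was 13.6 in the male labelled KO and 14.6 in the male labelled WT, and between 6.68 and 8.59 in the females. That ratio was chosen after the values were seen.

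The other lipoxygenases did not share 1 pattern. Alox12 encodes the platelet-type lipoxygenase, which makes the hydroperoxide of arachidonic acid at carbon 12. Alox12 (ENSMUSG00000000320, minus strand of chromosome 11 from 70241457 to 70255353) was at 7.26, 5.80 and 53.4 CPM in the libraries labelled KO, against 13.5, 8.16 and 10.5 CPM in those labelled WT. The male labelled KO was thus 3.96 times the highest other library, while both females labelled KO lay below both females labelled WT. Alox15 encodes the leukocyte-type lipoxygenase of mice, known from macrophages and eosinophils. Alox15 (ENSMUSG00000018924, minus strand of chromosome 11 from 70344152 to 70352031) was low throughout, at 1.34, 4.46 and 2.11 CPM in the libraries labelled KO, against 2.85, 3.56 and 1.45 CPM in those labelled WT. The females labelled KO held both its lowest and its highest value, and these rest on 30 and 123 reads.

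Of the enzymes that compete for leukotriene A4, Lta4h was highest and Ltc4s lowest in the male labelled KO. Neither passed the interaction test (log2 0.47 and -0.67). Lta4h (ENSMUSG00000015889, chromosome 10, 93453411 to 93484875, plus strand) was at 40.8, 48.4 and 56.7 CPM in the libraries labelled KO, against 45.6, 38.1 and 38.2 CPM in those labelled WT. It was the steadiest of the 9 genes, with a range of 0.57 on the log2(CPM + 0.5) scale over the 6 libraries. Ltc4s (ENSMUSG00000020377, minus strand of chromosome 11 from 50236461 to 50238616) was at 4.17, 5.15 and 2.30 CPM in the libraries labelled KO, against 8.46, 4.15 and 5.12 CPM in those labelled WT. The level of Lta4h over that of Ltc4s, both per kb, was 1.63, 1.56 and 4.10 in the libraries labelled KO, against 0.897, 1.52 and 1.24 in those labelled WT. The labels did not overlap in this ratio, with a gap as small as 1.56 against 1.52, and p was 0.1 by an exact permutation test (two-sided), which is as low as 3 libraries against 3 can reach; the ratio was chosen after the values were seen, and 9.52% of all single genes tested did not overlap between labels.

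Of the receptors, the one for leukotriene B4 stood apart in the male labelled KO, and the cysteinyl leukotriene receptors did not. Ltb4r1 (ENSMUSG00000046908, chromosome 14, 55765962 to 55768494, plus strand) was at 5.24, 7.29 and 35.7 CPM in the libraries labelled KO, against 6.82, 7.42 and 4.74 CPM in those labelled WT. The male labelled KO was 4.81 times the highest other library, and the male labelled WT was the lowest of the 6. Cysltr1 (ENSMUSG00000052821, minus strand of chromosome X from 106574346 to 106603679) was at 9.05, 5.76 and 5.30 CPM in the libraries labelled KO, against 5.78, 7.12 and 7.47 CPM in those labelled WT. Its highest and lowest values were both in libraries labelled KO. Cysltr2 (ENSMUSG00000033470, minus strand of chromosome 14 from 73025603 to 73049114) was at 1.66, 1.49 and 3.04 CPM in the libraries labelled KO, against 2.34, 2.57 and 4.27 CPM in those labelled WT. For Cysltr2 both males lay above all 4 females, and within each sex the libraries labelled KO lay below those labelled WT. Of the 9 genes, Alox12 and Cysltr2 were the 2 whose labels did not overlap among the 4 females, which 28.9% of all genes tested showed.

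**Figure D2:**
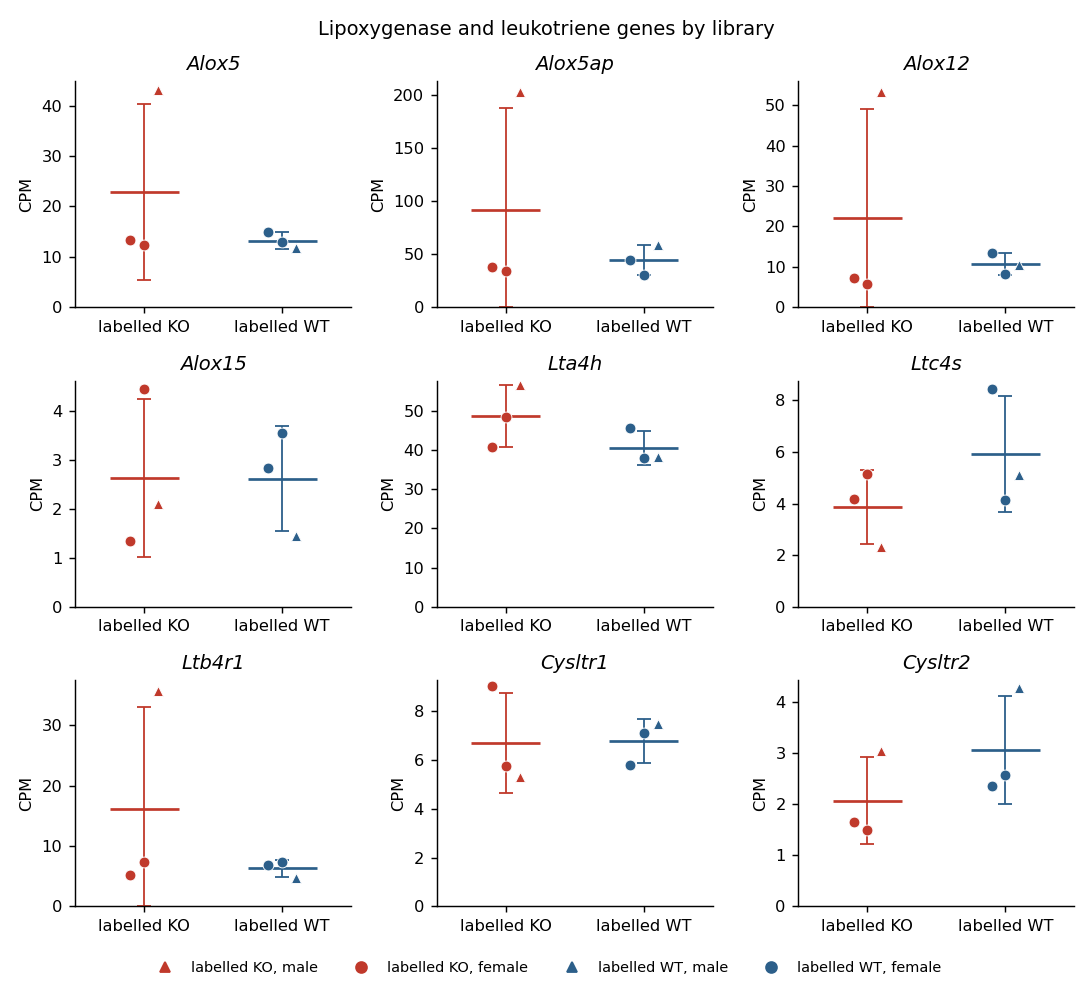
Levels of each gene in CPM, 1 panel per gene with an axis from 0, labelled KO left of labelled WT, triangles for males and circles for females; lines give the mean and bars the SD (n = 3), cut off at 0 where the SD exceeds the mean. The male labelled KO stands at 43.0 CPM for Alox5, 202.9 CPM for Alox5ap, 53.4 CPM for Alox12 and 35.7 CPM for Ltb4r1, above all other libraries.

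The sources used here do not give strand use, so overlapping antisense genes could add reads to some of these values. Gm19719 lies within Alox5ap on the other strand and was between 0.126 and 1.95 CPM, Gm26542 overlaps Ltc4s and was between 0.0391 and 1.08 CPM, and Gm5127 overlaps Cysltr1 and was at most 0.396 CPM. Each was below the level of the gene it overlaps in all 6 libraries. Ltb4r2, the gene of the second leukotriene B4 receptor, ends 823 bases before Ltb4r1 on the same strand and was at 0.583, 0.544 and 1.33 CPM in the libraries labelled KO, against 0.209, 0.495 and 1.11 CPM in those labelled WT.

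The comparison of the labels sets lungs labelled Cyp1b1 KO against lungs labelled Wild Type on this diet, with Cyp1b1 itself higher in the lungs labelled KO. In limma with sex as an additive term, 0 of the 9 genes passed an adjusted p of 0.05, and 0 of 9 had an unadjusted p under 0.05; over all 17382 genes tested 0.0115% passed and 5.13% had an unadjusted p under 0.05. The 9 log2 differences, labelled KO minus labelled WT, ran from -0.56 for Ltc4s to 0.80 for Ltb4r1, with a median of 0.25 where that of all genes was -0.056. Adjusted p-values by limma were between 0.775 and 0.979. Without the male labelled KO, Alox5 was at -0.11, Alox5ap at -0.027, Alox12 at -0.65 and Ltb4r1 at -0.19, so the direction of these 4 differences turned. Alox15 at -0.052 and Cysltr1 at -0.045 were near 0, and both turned positive under median centring and quantile normalization.

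The comparison of the sexes likewise called 0 of the 9 genes, where 0.834% of all genes passed. The median log2 difference of the 9 was 0.73, and that of all genes -0.052. The limma log2 difference, male minus female, was 1.58 (SE 0.36) for Alox5ap, 1.47 (SE 0.57) for Alox12 and 0.73 (SE 0.28) for Cysltr2, with adjusted p of 0.0987, 0.276 and 0.269; these were the 3 genes with an unadjusted p under 0.05, which 15.3% of all genes had. Alox5ap and Cysltr2 were higher in 2 of 2 males than in every female, a pattern shown by 9.28% of genes tested. Left without the male labelled WT, so that the male labelled KO alone stood for the males, 4 of the 9 genes passed, where 5.05% of all genes then did: Alox5 at 1.71, Alox5ap at 2.49, Alox12 at 2.95 and Ltb4r1 at 2.44. Left without the male labelled KO, 0 of the 9 and 712 of all genes passed, with Alox5 at -0.25, Alox5ap at 0.68, Alox12 at -0.0060 and Ltb4r1 at -0.54.

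The difference between the 2 male libraries was not that between the labels in females for 4 of the 9 genes, all in the same direction. By limma's interaction term 2.54% of all genes passed, and 0.702% passed in this direction, with the male labelled KO relatively higher. Ltb4r1 had an interaction of 2.98 on the log2 scale (SE 0.43, limma adjusted p = 0.0115), made of a difference of 2.79 between the males and -0.19 between the females. Alox12 had 2.95 (SE 0.47, limma adjusted p = 0.0167), from 2.30 between the males and -0.65 between the females. Alox5 had 1.95 (SE 0.32, limma adjusted p = 0.0189), from 1.84 between the males and -0.11 between the females. Alox5ap had 1.80 (SE 0.32, limma adjusted p = 0.0263), from 1.78 between the males and -0.027 between the females. The other 5 genes had interactions between -0.67 for Ltc4s and 0.70 for Alox15, with limma adjusted p of at least 0.381. The median over the 9 genes was 0.70. That over all genes was -0.13, and 0.091 after median centring, which kept all 4 calls and moved the split of all calls to 348 higher and 313 lower, where it was 122 higher and 319 lower.

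With 1 male per label, the interaction sets 2 lungs against the spread of females, and no fit without either male is possible. The 4 calls ended when no filter on low values was used: 0 of 21900 genes then passed (3367 had an unadjusted p under 0.05), and the adjusted p of the 4 genes was 0.133 to 0.207. Alox5ap alone ended just outside without labelled KO replicate 2 (limma adjusted p = 0.0504). Over all alternatives the limma adjusted p ran from 0.00275 to 0.133 for Ltb4r1, 0.00431 to 0.182 for Alox12, 0.00593 to 0.133 for Alox5 and 0.00280 to 0.207 for Alox5ap.

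**Figure D3:**
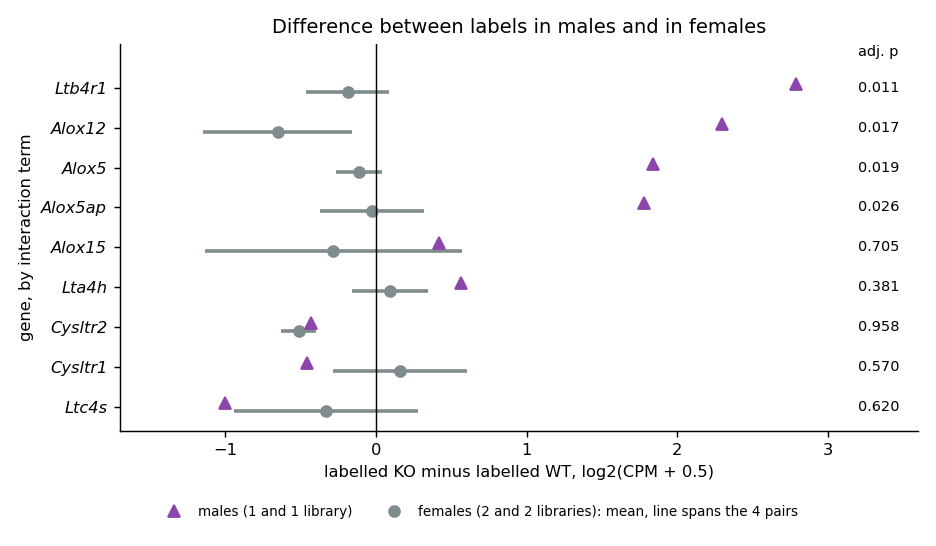
Difference between labels on the log2(CPM + 0.5) scale, labelled KO minus labelled WT, for each gene: triangles for the 2 males (1 library each), circles for the mean of the females with a line over their 4 pairs, and at the right the limma adjusted p of the interaction term. The male differences of Ltb4r1, Alox12, Alox5 and Alox5ap lie between 1.78 and 2.79 and outside the lines of the females.

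The promoters of Alox5, Alox12 and Ltb4r1 are shown because these genes were high together in the male labelled KO. That of Ltc4s is shown because the gene was lowest there, as was Cysltr1, for which no window was at hand. The sequences are RefSeq windows of 300 bases on GRCm38.p6, from 250 bases before to 50 bases after the start site. They are given in the direction of transcription. Capitals mark matches on either strand to GAGGAA (the core bound by PU.1, a factor of myeloid cells), GGGCGG (the GC box bound by SP1) or TGTGGT (bound by RUNX factors); AGATAA, bound by GATA factors, was searched as well. RefSeq windows were at hand for 6 of the 9 genes.
Alox5, chr6:116461129-116461428, minus strand: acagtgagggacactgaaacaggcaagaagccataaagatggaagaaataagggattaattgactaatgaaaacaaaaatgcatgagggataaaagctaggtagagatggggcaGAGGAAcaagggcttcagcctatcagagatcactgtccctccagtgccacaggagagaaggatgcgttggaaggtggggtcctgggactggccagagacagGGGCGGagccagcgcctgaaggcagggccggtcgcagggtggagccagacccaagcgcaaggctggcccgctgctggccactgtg
Alox12, chr11:70255321-70255620, minus strand: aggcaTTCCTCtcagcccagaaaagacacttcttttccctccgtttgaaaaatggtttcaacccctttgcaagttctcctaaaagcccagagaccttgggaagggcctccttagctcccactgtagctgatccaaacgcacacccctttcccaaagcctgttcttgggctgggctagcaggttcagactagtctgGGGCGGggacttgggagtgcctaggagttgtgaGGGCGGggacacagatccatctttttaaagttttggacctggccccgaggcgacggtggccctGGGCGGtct
Ltb4r1, chr14:55765712-55766011, plus strand: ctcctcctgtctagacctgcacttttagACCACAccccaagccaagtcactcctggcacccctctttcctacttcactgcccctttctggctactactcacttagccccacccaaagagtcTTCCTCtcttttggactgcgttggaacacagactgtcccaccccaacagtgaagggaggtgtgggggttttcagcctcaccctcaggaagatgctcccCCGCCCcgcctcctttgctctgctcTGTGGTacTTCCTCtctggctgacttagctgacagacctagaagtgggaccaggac
Ltc4s, chr11:50238483-50238782, minus strand: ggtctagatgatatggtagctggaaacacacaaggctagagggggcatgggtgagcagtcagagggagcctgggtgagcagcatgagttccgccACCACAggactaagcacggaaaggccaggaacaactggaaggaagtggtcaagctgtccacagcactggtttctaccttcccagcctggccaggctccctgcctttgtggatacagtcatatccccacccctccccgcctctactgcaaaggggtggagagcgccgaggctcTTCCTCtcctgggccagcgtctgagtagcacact

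GAGGAA was found in 5 of the 6 windows, those of Alox5, Alox12, Ltb4r1, Ltc4s and Lta4h, against 28.1% of the 32544 RefSeq windows of this length. It lay 136 bases before the start site in Alox5 and 245 before it in Alox12, and 2 matches lay in Ltb4r1. GGGCGG, in 35.9% of all windows, was found once in Alox5, once in Ltb4r1 and 3 times in Alox12. TGTGGT, in 16.7% of all windows, was found in Ltb4r1 and Ltc4s, and no match overlapped another. AGATAA, in 11.2% of all windows, had no match in the 6. The window of Ltc4s thus holds GAGGAA as well, although its gene was not high in that male; a match describes letters and is not a binding site.

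Markers of neutrophils and platelets were, like the 4 genes, highest in the male labelled KO. In the male labelled WT they parted: the neutrophil sum lay above all females, while Alox5 and Ltb4r1 were the lowest of all libraries. Alox12 lay within the females there, and Alox5ap above them. All 18 neutrophil markers were highest in the male labelled KO, where they summed to 7661 CPM, against 637 CPM in the male labelled WT; the females held 350 and 283 CPM in labelled KO and 345 and 339 CPM in labelled WT. S100a8, a calprotectin subunit of neutrophils, was at 1467 CPM in the male labelled KO, against 54.2 CPM in the male labelled WT. By the interaction term, 13 of 17 neutrophil markers tested were relatively higher in the male labelled KO, where 0.702% of all genes tested were. The marker lists here and below were chosen with earlier results of these data known, so such calls beside all genes are not independent support. These 13 calls, like every other interaction call, ended with no filter on low values. Camp, Ly6g and Mpo are among these calls and passed the filter only through that male, at 129, 43.3 and 15.5 CPM there. Elsewhere they were at most 0.939, 0.896 and 0.168 CPM, so the filter fixed their direction. All 12 platelet markers were also highest in that male, with a sum of 665 CPM against 142 CPM in the male labelled WT, and 7 of 12 passed in the same direction; the females held 94.2 and 100.1 CPM in labelled KO and 139.5 and 93.2 CPM in labelled WT. Itgb3, an integrin gene of platelets, was at 170.9 CPM in the male labelled KO, against 48.4 CPM in the male labelled WT. The sum in the male labelled KO was 12.0 times the next library for neutrophil markers and 4.69 times for platelet markers, next to 2.87 for Alox5, 3.45 for Alox5ap, 3.96 for Alox12 and 4.81 for Ltb4r1. None of these markers was below 3 reads in every library, and their part in the result was not tested.

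Other blood and immune markers were uneven between the males too. Erythroid markers summed to 6009 CPM in the male labelled KO and 2810 CPM in the male labelled WT, and inflammatory monocyte markers to 683 and 467 CPM, where the females of both labels held at most 1650 and 247 CPM. Interstitial macrophage markers summed to 831 CPM in the male labelled KO and 2364 CPM in the male labelled WT. Most of that difference was Apoe, at 464 and 1477 CPM, while Lyve1 went the other way, at 267 and 154 CPM. Of the interstitial macrophage markers 6 of 10 passed the interaction test, all lower, where 1.84% of all genes did. In the same males, T cell markers summed to 40.0 and 198 CPM and B cell markers to 71.7 and 268 CPM. Large peritoneal type macrophage markers summed to 165 and 295 CPM there. Most of that last difference was Saa3, at 7.06 and 121 CPM, while Icam2 was at 116 and 131 CPM and Gata6 at 36.8 and 34.5 CPM. Alveolar macrophage markers ranged from 336 to 495 CPM over the libraries labelled KO and from 505 to 659 CPM over those labelled WT. Of 13 tested, 0 passed for the label. By the interaction term Chil3 passed higher (log2 1.97), and Itgax and Ctsk passed lower (-2.12 each). Over all genes 0.702% passed higher and 1.84% lower. Chil3, a chitinase-like protein gene, was the list's most abundant marker. It was at 58.4, 64.5 and 230.8 CPM in the libraries labelled KO, against 278.7, 223.9 and 238.4 CPM in those labelled WT. The sums of the labels did not overlap, which 9.52% of all single genes tested showed as well. Mast cell and basophil markers ranged from 474 to 644 CPM in labelled KO and 374 to 483 CPM in labelled WT, most of it from Kit, Gata2 and Hdc, while the mast cell protease genes Cpa3, Mcpt4 and Cma1 stayed at or below 1.84 CPM. Eosinophil markers summed to 24.1 CPM in the male labelled KO and 15.6 CPM in the male labelled WT, and to at most 8.02 CPM in the females. Most of this was Siglece, a sialic acid-binding receptor gene that neutrophils and macrophages also express, at 23.4 CPM in the male labelled KO and 12.0 CPM in the male labelled WT, while the eosinophil granule gene Prg2 was at most 1.84 CPM. The 7 lists of other lung cells, such as endothelium and epithelium, stood in the male labelled KO at 0.457 to 1.22 times the highest other library. Their part in the levels of the 9 genes was not tested.

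**Figure D4:**
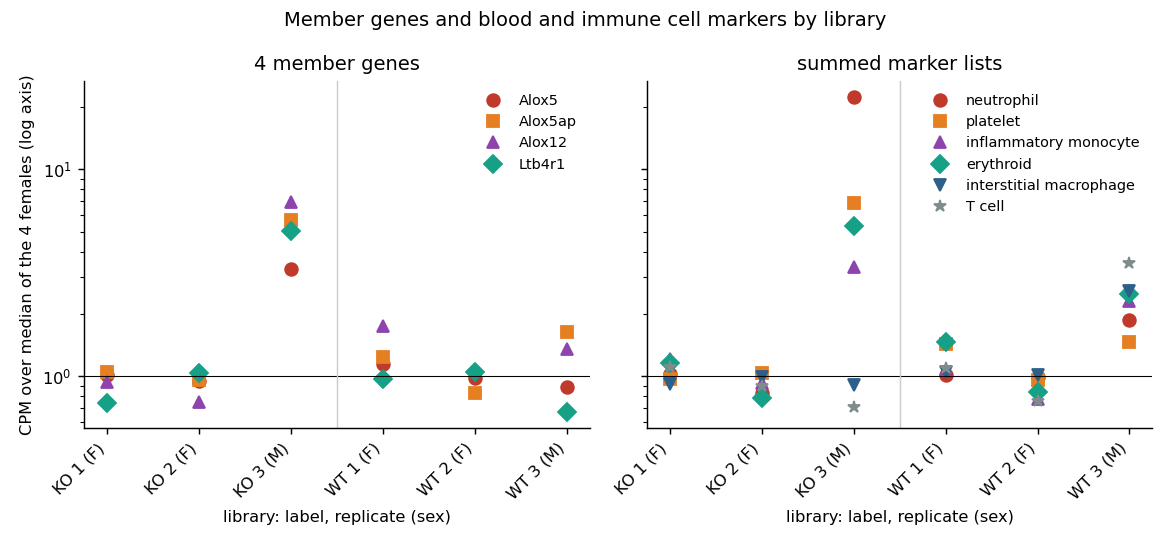
Level in each library over the median of the 4 females, on a log axis, for Alox5, Alox5ap, Alox12 and Ltb4r1 (left) and for 6 summed marker lists (right), libraries labelled KO left of those labelled WT with sex in brackets. The male labelled KO is the highest library for all 4 genes and for neutrophil, platelet, erythroid and inflammatory monocyte markers, and the male labelled WT for interstitial macrophage and T cell markers.

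Among the other genes of the pathway, a few moved with the males and 0 with the label. Of 46 entries on 5 lists, 41 were in the table and 34 were tested; 0 passed for the label and 0 had an unadjusted p under 0.05 by limma, 2 were higher in males, where 0.834% of all genes passed for sex, and 1 passed the interaction test, where 2.54% of all genes did. Unadjusted p was under 0.05 for 11 of the 34 in the sex test and 9 in the interaction test, against 15.3% and 17.9% of all genes. Their median log2 difference was -0.00027 for the label, 0.12 for sex and 0.16 for the interaction, where those of all genes were -0.056, -0.052 and -0.13. Cotl1, which encodes a protein that binds and steadies the lipoxygenase of Alox5, was at 139 CPM in the male labelled KO and 139 CPM in the male labelled WT, against 61.6 to 73.8 CPM in the females (limma log2 difference, male minus female, 1.03, SE 0.12, adjusted p = 0.0166). Fpr2, a formyl peptide receptor that also binds lipoxins, was at 49.4 CPM in the male labelled KO and 31.5 CPM in the male labelled WT, against 3.58 to 4.86 CPM in the females (3.10, SE 0.26, adjusted p = 0.00285). These 2 genes were high in both males, unlike Alox5, Alox12 and Ltb4r1. Pla2g2d, a secreted phospholipase of dendritic cells and macrophages, had the opposite direction to the 4 genes (limma interaction -4.59, adjusted p = 0.0093). It was at 4.84, 2.57 and 0.0781 CPM in the libraries labelled KO, against 2.76, 3.12 and 11.3 CPM in those labelled WT. Its value in the male labelled KO stands for fewer than 3 reads, which are 0.117 CPM there.

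The lists of other lipoxygenases and of export and breakdown held no call. Of the other lipoxygenases, Aloxe3, which works in the skin barrier, was at 2.42, 1.89 and 0.507 CPM in the libraries labelled KO, against 1.09, 0.989 and 0.726 CPM in those labelled WT, and Alox12e was at most 0.448 CPM. Of 12 genes tested for export and breakdown of leukotrienes, 0 passed any of the 3 tests, which called 0.0115%, 0.834% and 2.54% of all genes for label, sex and interaction; 0, 6 and 3 of the 12 had an unadjusted p under 0.05, against 5.13%, 15.3% and 17.9% of all genes. Ggt1, a gamma-glutamyltransferase gene chosen after its values were seen, was at 2.42, 0.979 and 16.8 CPM in the libraries labelled KO, against 1.13, 2.03 and 2.26 CPM in those labelled WT (limma interaction 2.62, SE 0.73, adjusted p = 0.114). Abcc1, which exports leukotriene C4, was between 47.9 and 61.9 CPM, and Dpep1, a dipeptidase that converts leukotriene D4, between 91.6 and 191.6 CPM with its highest value in the male labelled KO.

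The genes whose levels followed each of the 7 variable genes most closely were sought among all genes tested, by the largest difference between centred log2 values over the 6 libraries. For Alox12 these were Ly6g6f (0.14), the platelet marker Gp5 (0.19) and Serpinb2 (0.27), and 14 genes lay within 0.5 of it in every library. For Alox5 they were Jph3 (0.13), Ackr2 (0.17) and Slc40a1 (0.17), with 68 genes within 0.5. For Alox5ap they were Ms4a4a (0.21), Cd33 (0.24) and Mxd1 (0.25), with 45 genes within 0.5. For Ltb4r1 they were Lrg1 (0.27), Myrip (0.39) and Abcb4 (0.43), with 4 genes within 0.5. Ly6g6f, Serpinb2 and Jph3 were at 3.55, 3.94 and 2.07 CPM in the male labelled KO. Elsewhere they were at most 0.670, 0.586 and 0.335 CPM. These low genes passed the filter only through that male, so their closeness rests on that library. Closeness of the other genes named for these 4 members rests largely on it too. On the centred log2 scale that male stood at 1.41 for Alox5, 1.95 for Alox5ap, 2.13 for Alox12 and 2.03 for Ltb4r1. No other library was above 0.183 for any of them. Among the 9 genes, Alox12 and Alox5ap were nearest to each other, with a largest difference of 0.41, and Alox5 was nearest to Alox5ap at 0.60 and Ltb4r1 to Alox5 at 0.62. Alox15, Ltc4s and Cysltr2 each had 120 or more genes within 0.5, up to 733 for Cysltr2, so their closest genes (Gm38708, Cda and Gm5417 for Alox15, 6330549D23Rik, Mdfi and Dnajc4 for Ltc4s, and Gm43914, Gm47003 and Nemp1 for Cysltr2) were not set apart.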

How the data were processed

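RNA of 6 mouse lungs was sequenced, 3 labelled Cyp1b1 KO and 3 labelled Wild Type. The authors deposited CPM per gene, with 0.0001 added to every value; per the submitters' processing notes the build was mm10 and the tools TopHat2 and Partek, without versions. For annotation and strand setting, nothing is given in the sources used here. Depth was read from the smallest step between low values; only 82.1% to 83.3% of values worth up to 100 reads were whole multiples of it within 0.05, so no count model was used. Positions and merged exon lengths came from GENCODE M21, which held 99.8% of the gene IDs.

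Log2(CPM + 0.5) values were fitted in R 4.3.3 with limma 3.58.1 and its variance trend, taking label and sex as additive terms, and a second fit with their interaction, two-sided, for 17382 genes with a mean of at least 0.5 CPM. P-values were Benjamini-Hochberg adjusted over all genes tested, with a threshold of 0.05. The additive fit was tested for the label on simulated data with changes between labels only, and the interaction fit was not. Log2 differences understate changes of low genes. Genes named were, by rule, Cyp1b1, the 9 members, pathway list genes past a test or else the 2 most abundant, the most abundant marker of a list (given for some lists only), and the 3 genes most alike each member with a mean of at least 1 CPM and a log2 range of at least 1; lung markers, overlapping genes, other markers and ratios were picked with their values in view. The members and lists were chosen with earlier results of these data known. Tables and figures were made with matplotlib 3.10.9, numpy 2.4.6 and pandas 2.3.3 under Python 3.11.15.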

Additional observations from a re-analysis of the deposited data

Results flagged for a closer look

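By limma's interaction term, the difference between the labels was not the same in males and in females for 5 genes. This term rests on 1 male per label. The 5 came from the 9 genes and the 34 pathway genes tested, where 2.54% of all genes passed. With no filter on low values 0 of 21900 genes passed. On the log2 scale the interaction was 1.95 for Alox5, 1.80 for Alox5ap, 2.95 for Alox12 and 2.98 for Ltb4r1. Each came from a high value in the male labelled KO. For Pla2g2d it was -4.59, from 0.0781 CPM in the male labelled KO and 11.3 CPM in the male labelled WT. That low value stands for fewer than 3 reads, which are 0.117 CPM in that library.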

How the results depend on the processing

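No paired analysis was possible because the labels carry no replicate numbers, and those used here follow accession order and pair no libraries. For the label, 0 of the 9 genes passed under any alternative run; all genes called were 2, but 6 with no filter, median centring, quantile normalization or robust moderation, 4 in the 4 females, and 1 to 4 when a library was left out. Differences that turned were Alox15 (0.052 and 0.066) and Cysltr1 (0.058 and 0.085) under median centring and quantile normalization, and in the females Alox5 (-0.11), Alox5ap (-0.027), Alox12 (-0.65), Ltb4r1 (-0.19) and Cysltr1 (0.16). With libraries left out, the label difference ran from -0.39 to 0.42 for Alox15, -0.28 to 0.16 for Cysltr1, -0.11 to 0.79 for Alox5, -0.027 to 0.91 for Alox5ap, -0.65 to 0.81 for Alox12 and -0.19 to 1.21 for Ltb4r1. The sex difference ran from -0.41 to 0.20 for Cysltr1, -0.25 to 1.71 for Alox5, -0.0060 to 2.95 for Alox12, -0.13 to 0.35 for Lta4h and -0.54 to 2.44 for Ltb4r1, with 0 to 4 of the 9 genes and 21 to 877 of all genes called, and the interaction of Alox15 from -0.011 to 1.42. For the interaction, 441 of all genes and 4 of the 9 passed; with no filter 0 and 0 did (limma prior degrees of freedom 2.52, against 6.34), with the cause not tested, and with a female left out 255 to 696 and 3 to 4 did. The other alternatives gave 338 to 661 of all genes and kept 4 of the 9. Alox15 and Cysltr2 rest on 30 to 123 reads a library, which limits what could be detected.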
